A study of Mus musculus with 6 samples.

Results

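The mitochondrial ribosomal proteins were taken as the genes whose single symbol in the platform annotation begins with Mrpl or Mrps and a digit, with the row of the highest mean over the 6 arrays where a gene has several. The rule found 77 genes among the 19937 genes with a named row, 48 of the large subunit (Mrpl) and 29 of the small subunit (Mrps). Of these, 76 passed a filter on low values and were tested. The remaining one, Mrps27, lay below it.

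The mitochondrial ribosome translates the few messages encoded by mitochondrial DNA, all of which give subunits of the respiratory chain and ATP synthase. Its RNA is made inside the organelle, whereas its proteins are encoded in the nucleus, made in the cytosol and imported. The small subunit binds and decodes the message, and the large subunit joins the amino acids. Many of its proteins have homologues in the bacterial ribosome and others are found only in mitochondria. T cells enlarge their mitochondrial translation machinery when they are activated.

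The arrays hold RNA of CD4+ TCRβ+ CD25+ T cells, a population rich in regulatory T cells (Tregs). Wild-type C57BL/6 T cells had been transferred into CD3ε-/- mice, which lack T cells of their own, and the CD25+ cells were recovered by magnetic beads and sorting on day 5. In the MHC II-competent group (n = 3 arrays) the recipients expressed MHC class II, and in the MHC II-deficient group (n = 3) they were CD3ε and MHC II double deficient, so that the transferred cells met no MHC class II on host cells. The labels give an age of 6 to 8 weeks, peripheral lymph nodes and spleen as the tissue of origin, and biological replicates numbered 1 to 3. Whether cells of 1 recipient or of several make up a replicate is not stated, and the tests rest on the spread among these 6 preparations alone. The comparison addresses which transcripts of such cells differ when contact between the T cell receptor and MHC class II is missing. All values are log2 array values, and all differences are MHC II-deficient minus MHC II-competent.

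The sort carried its defining transcripts in every array. The 8 T cell and Treg markers tested (Cd3e, Cd3d, Cd3g, Cd4, Foxp3, Il2ra, Ctla4 and Ikzf2) averaged 11.20, 11.24 and 11.15 in the competent arrays and 11.05, 10.99 and 11.02 in the deficient arrays. Markers of myeloid cells, 17 genes, averaged 6.75, 7.09 and 6.18 against 7.84, 7.58 and 7.01. The 4 tested B cell markers averaged 5.95 to 6.18 against 6.09 to 6.15, the 4 CD8 T and NK cell markers 6.84 to 6.89 against 7.07 to 7.16, and the 2 erythroid and platelet markers 6.07 to 6.48 against 6.45 to 6.68. Array values have no true zero, so no marker can be said to be at 0.

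Messages of the mitochondrial ribosome were slightly lower in cells from MHC II-deficient recipients, in most members and in both subunits, but only 1 of them passed the test. Of the 76 members tested, 66 had a difference below 0 and 10 above, whereas 46.0% of all 15037 genes tested lay below 0. The median difference was -0.18, a 1.14-fold lower level, beside a median of 0.02 over all genes tested. The background depends on the filter. When the filter was raised to the median of named rows, 55.1% of the 9943 genes left lay below 0, with a median of -0.03. The members kept 66 of 76 below 0. With limma and Benjamini-Hochberg adjustment over all genes, Mrpl36 fell and 0 members rose. That is 1 of 76, beside 2.03% of all genes called lower and 1.34% called higher, so the share of called members is near the background. The call depends on single arrays, as given below with the values of Mrpl36. Under quantile normalization the calls over all genes were 230 lower and 230 higher, beside 306 and 201 in the deposited scaling. At an unadjusted p under 0.05 there were 24 of 76 members lower and 1 higher, beside 11.0% of all genes lower and 7.85% higher at that threshold.

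All 3 deficient arrays lay below all 3 competent arrays for 29 of the 76 members (38.2%), beside 12.9% of all genes tested. The opposite order was seen for 1 member, Mrpl30, beside 11.4% of all genes. The members' differences ran from -0.54 to 0.36, and 2 of them were at least 0.5 in size. In 40 members the difference was under 0.2 in size. The median standard error was 0.12, and the 95% intervals of 51 members included 0. In bulk RNA, fewer cells of a type and less RNA per cell cannot be told apart.

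**Figure D1:**
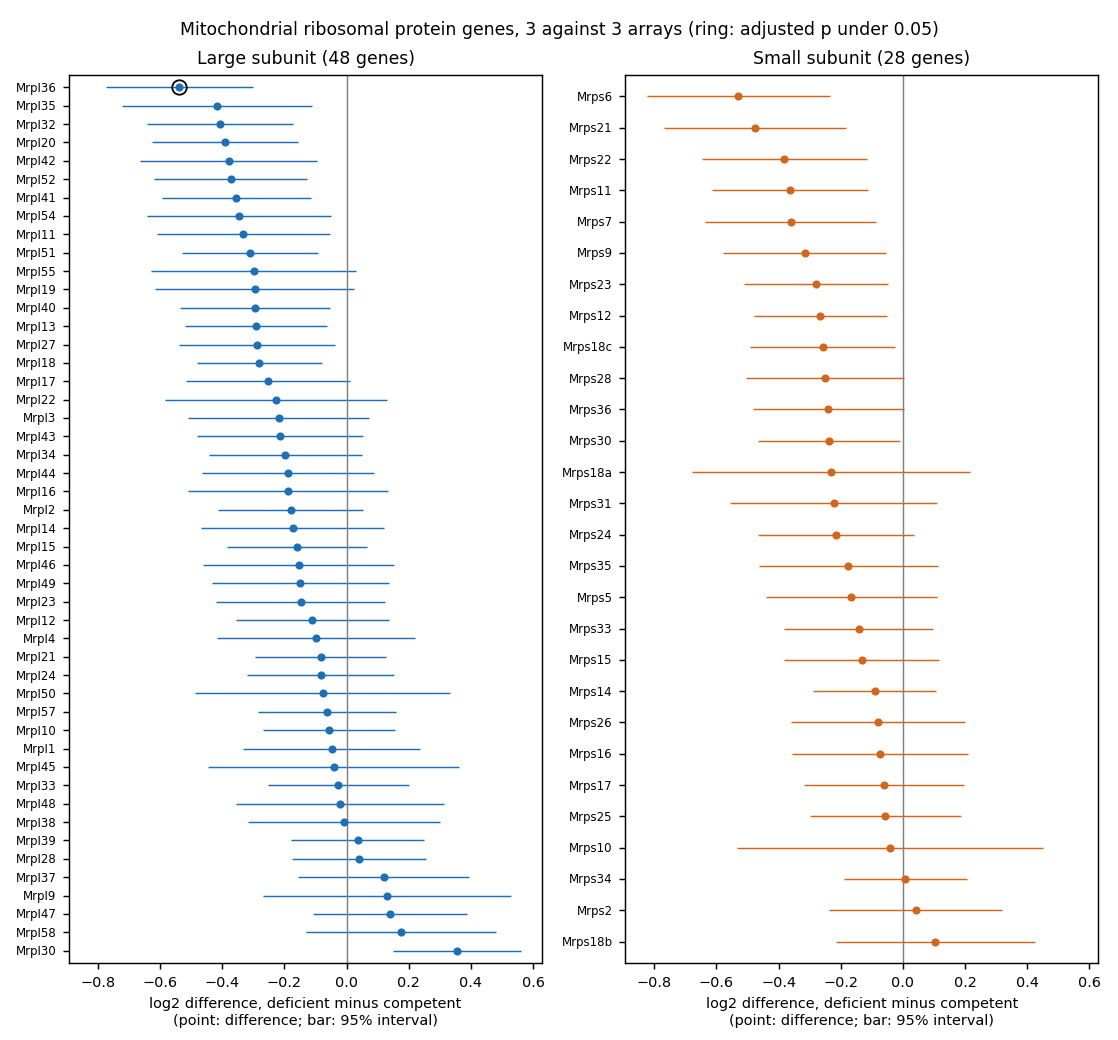
Log2 difference (MHC II-deficient minus MHC II-competent, 3 arrays each) of the 76 tested members, with limma's 95% interval as a bar, for the large and the small subunit. Most points lie left of 0, from -0.54 (Mrpl36) to 0.36 (Mrpl30), and the ring marks Mrpl36, the 1 member with an adjusted p under 0.05.

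**Figure D2:**
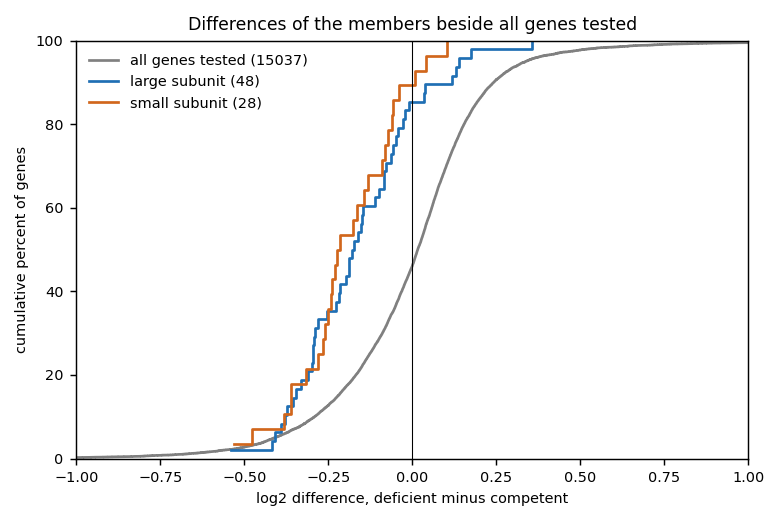
Cumulative percent of genes (vertical axis) at or below each log2 difference (horizontal axis, cropped at -1 and 1) for the 48 large-subunit and 28 small-subunit genes and all 15037 genes tested. The curves of both subunits lie left of that of all genes, with medians of -0.18 and -0.22 against 0.02.

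Upstream sequences of 4 members are shown because they carry the contrasts described below: the member that fell (Mrpl36), a member with several promoter motifs (Mrpl32), a small-subunit member among the largest decreases (Mrps22) and the member with the largest increase (Mrpl30). Each is the 250 bases before the RefSeq start, 5′ to 3′ on the gene's own strand, from build GRCm38.p6. The positions are chr13:73330759-73331008 on the + strand for Mrpl36, chr13:14613038-14613287 on the - strand for Mrpl32, chr9:98601680-98601929 on the - strand for Mrps22 and chr1:37890227-37890476 on the + strand for Mrpl30. The genome build of the array annotation is not given in the sources used here. Capitals mark matches, on either strand, to GCGCATGC, CCGGAAG and AAGATGGC.
Mrpl36: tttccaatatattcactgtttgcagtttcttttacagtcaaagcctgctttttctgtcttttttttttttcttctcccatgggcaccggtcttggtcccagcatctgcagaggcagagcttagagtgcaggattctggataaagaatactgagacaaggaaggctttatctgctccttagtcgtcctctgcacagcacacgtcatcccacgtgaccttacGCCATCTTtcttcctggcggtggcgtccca
Mrpl32: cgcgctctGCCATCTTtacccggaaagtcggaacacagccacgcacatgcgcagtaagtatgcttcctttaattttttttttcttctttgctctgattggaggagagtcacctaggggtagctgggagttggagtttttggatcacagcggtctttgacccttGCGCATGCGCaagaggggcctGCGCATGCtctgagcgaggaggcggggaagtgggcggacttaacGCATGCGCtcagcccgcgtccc
Mrps22: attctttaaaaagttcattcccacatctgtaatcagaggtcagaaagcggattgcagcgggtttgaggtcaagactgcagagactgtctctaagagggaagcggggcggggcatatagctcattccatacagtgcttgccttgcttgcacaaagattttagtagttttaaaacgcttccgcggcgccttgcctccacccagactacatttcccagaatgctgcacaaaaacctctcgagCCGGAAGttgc
Mrpl30: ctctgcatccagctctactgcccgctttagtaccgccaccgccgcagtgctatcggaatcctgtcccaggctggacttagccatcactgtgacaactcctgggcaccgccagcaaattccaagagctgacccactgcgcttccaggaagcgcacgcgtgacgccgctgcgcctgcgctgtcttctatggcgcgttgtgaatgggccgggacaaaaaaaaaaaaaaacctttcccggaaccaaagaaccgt
Mrpl36 has 1 match, the reverse complement of AAGATGGC, 23 to 30 bases before the start. Mrpl32 has 5, of which 4 are GCGCATGC on the 2 strands (2 of them overlapping) and 1 is AAGATGGC. Mrps22 has 1 match, CCGGAAG, 5 to 11 bases before the start, and Mrpl30 has 0 in this window. These 4 genes were picked by their values or matches and do not stand for the members. In the wider promoter windows described below, 31 of 36 tested members with any of these matches lay below 0. Of the 31 tested members with a window and no match, 27 did, and over all genes tested the share was 46.0%.

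Among the large-subunit genes, Mrpl36 (row 10406026) showed the largest decrease. It encodes the homologue of bacterial L36, the smallest protein of the bacterial large subunit. Its log2 values were 7.37, 7.61 and 7.51 in the competent arrays and 7.07, 6.87 and 6.94 in the deficient arrays. The groups did not overlap, and the deficient arrays lay at 6.96 ± 0.10 against 7.50 ± 0.12 (SD, n = 3). Mrpl36 fell by 0.54 (SE 0.11, 95% interval -0.78 to -0.30, adjusted p = 0.028), a 1.45-fold lower level. The call ended without competent 2 (adjusted p = 0.094) and without deficient 1 (0.068), deficient 2 (0.12) or deficient 3 (0.080), while the difference stayed between -0.60 and -0.48 with 1 array left out.

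Mrpl30 (row 10345620), which encodes the homologue of bacterial L30, ran the other way. Its values were 9.49, 9.51 and 9.56 in the competent and 9.80, 9.92 and 9.90 in the deficient arrays. It was the 1 member whose deficient arrays all lay above the competent ones. The difference of 0.36 (SE 0.09, interval 0.15 to 0.56, 1.28-fold) had an adjusted p of 0.071 and did not pass. It passed under quantile normalization (0.43, adjusted p = 0.038), the trended robust prior (0.049) and array weights (0.047), and under no other alternative. Over all alternatives the difference ran from 0.30 to 0.43 and limma's adjusted p from 0.038 to 0.23.

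Next in size among large-subunit decreases were Mrpl35, Mrpl32, Mrpl20 and Mrpl42, none of which passed. Mrpl32 (row 10407870), whose protein is cut to its mature form by an inner-membrane protease before it joins the ribosome, stood at 8.11, 8.32 and 8.16 in the competent and 7.67, 7.86 and 7.85 in the deficient arrays (difference -0.41, SE 0.10, adjusted p = 0.071). Mrpl20 (row 10511149), the homologue of an early-binding bacterial assembly protein, stood at 7.31, 7.36 and 7.27 against 6.75, 6.98 and 7.03 (difference -0.39, SE 0.10, adjusted p = 0.079). In both genes the groups were apart and deficient 1 was the lowest array.

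Mrpl35 (row 10545339), the homologue of bacterial L35, had values of 8.37, 8.33 and 8.22 in the competent and 7.81, 8.19 and 7.68 in the deficient arrays (difference -0.42, SE 0.14, adjusted p = 0.14). The gap between its groups was narrow, since deficient 2 came close to competent 3. Mrpl42 (row 10372078), a mitochondria-specific protein, had values of 9.97, 10.37 and 10.36 against 9.84, 9.77 and 9.95 (difference -0.38, SE 0.13, adjusted p = 0.15). Here competent 1 was close to the deficient arrays.

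The stalk and its base, which recruit the translation factors, are formed by the products of Mrpl10, Mrpl11 and Mrpl12. Mrpl11 stood at 9.25, 8.97 and 9.16 against 8.83, 8.97 and 8.59 (difference -0.33, SE 0.12, adjusted p = 0.19), with competent 2 and deficient 2 nearly equal. Mrpl12, the stalk protein that has also been reported to bind the mitochondrial RNA polymerase, stood at 8.25, 8.10 and 8.24 against 7.90, 8.18 and 8.18 (difference -0.11, SE 0.11, interval -0.36 to 0.14), and its groups overlapped. Mrpl10 had a difference of -0.06 (SE 0.09).

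Other large-subunit genes whose groups did not overlap include Mrpl18 (-0.28, SE 0.09, adjusted p = 0.13) and Mrpl27 (-0.29, SE 0.11, adjusted p = 0.20), homologues of bacterial L18 and L27, and Mrpl40 (-0.30, SE 0.11, adjusted p = 0.18). All 3 proteins lie in the central protuberance, which faces the small subunit. Other genes of that structure differed less, with overlapping groups: Mrpl46 (-0.15, SE 0.14), Mrpl48 (-0.02, SE 0.15) and Mrpl38 (-0.01, SE 0.14). The intervals of Mrpl46 (-0.46 to 0.15), Mrpl48 (-0.36 to 0.31) and Mrpl38 (-0.32 to 0.30) overlap those of Mrpl18, Mrpl27 and Mrpl40. Whether the decrease was shared by the whole structure was not tested. At the exit of the peptide tunnel, Mrpl45, whose product ties the ribosome to the inner membrane, had a difference of -0.04 (SE 0.18) with overlapping groups. None of the genes in this paragraph passed, and they were chosen after their values were seen.

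Of the large-subunit genes, 7 lay above 0. Besides Mrpl30 they were Mrpl58 (0.17, SE 0.14), Mrpl47 (0.14, SE 0.11), Mrpl9 (0.13, SE 0.18), Mrpl37 (0.12, SE 0.12), Mrpl28 (0.04, SE 0.10) and Mrpl39 (0.04, SE 0.10), each with overlapping groups and an adjusted p from 0.54 to 0.88. Mrpl58 encodes a peptidyl-tRNA hydrolase that frees stalled ribosomes and is built into the large subunit. Its values were 8.79, 8.42 and 8.39 against 8.88, 8.68 and 8.55. The sign of Mrpl9 rested on competent 3, which at 8.28 lay below its other arrays (8.97 and 8.93), and without competent 3 the difference was -0.10. The sign of Mrpl28 turned under median centring (-0.02).

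The small-subunit gene with the largest difference was Mrps6 (row 10436941), which encodes the homologue of bacterial S6. Its values were 8.53, 8.53 and 8.93 in the competent and 8.05, 8.27 and 8.08 in the deficient arrays. The groups were apart, with competent 3 the highest, and the difference was -0.53 (SE 0.13, interval -0.82 to -0.23, adjusted p = 0.064). It passed under median centring (-0.58, adjusted p = 0.042). Over all alternatives the difference ran from -0.60 to -0.39 and limma's adjusted p from 0.042 to 0.21. The RefSeq start of Slc5a3, the inositol transporter gene, lies 14 bases from that of Mrps6 on the same strand, and the Slc5a3 row differed by -0.41 (SE 0.18, adjusted p = 0.25). Which of their transcripts each row measures is not shown by these files.

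Mrps21 (row 10500268), the homologue of bacterial S21, stood at 10.34, 10.80 and 10.70 in the competent and 10.25, 10.09 and 10.07 in the deficient arrays. Competent 1 lay close to the deficient group, and the difference was -0.48 (SE 0.13, adjusted p = 0.087). It passed without competent 1 (-0.61, adjusted p = 0.042) and with the trended robust prior (0.049). Over all alternatives the difference ran from -0.61 to -0.38 and limma's adjusted p from 0.042 to 0.24. Mrps22 (row 10595900), a mitochondria-specific protein altered in an inherited disease of oxidative phosphorylation, stood at 9.32, 9.14 and 9.03 against 8.61, 8.91 and 8.83 (difference -0.38, SE 0.12, adjusted p = 0.12), with no overlap.

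Mrps11, the homologue of bacterial S11 on the platform of the subunit, stood at 7.68, 7.59 and 7.72 against 7.17, 7.50 and 7.23 (difference -0.36, SE 0.11, adjusted p = 0.12). Mrps7, the homologue of S7 in the head, stood at 8.88, 8.70 and 8.69 against 8.16, 8.50 and 8.53 (difference -0.36, SE 0.12, adjusted p = 0.15). Mrps12, which lines the decoding centre, stood at 9.57, 9.47 and 9.52 against 9.17, 9.35 and 9.24 (difference -0.27, SE 0.10, adjusted p = 0.17). Mrps15, the homologue of S15 on the platform, differed by less (-0.13, SE 0.11, adjusted p = 0.57). The groups were apart in Mrps11, Mrps7 and Mrps12 and overlapped in Mrps15, and none of the 4 passed. Mrps11, Mrps7 and Mrps15 were chosen after their values were seen.

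Mrps18a, Mrps18b and Mrps18c descend from the ancestral S18 gene. Mrps18c, whose protein holds the bacterial S18 place, stood at 10.94, 11.17 and 11.16 against 10.77, 10.80 and 10.92 (difference -0.26, SE 0.10, adjusted p = 0.22), with no overlap. Mrps18b, which sits elsewhere in the small subunit, stood at 8.08, 7.60 and 7.55 against 7.85, 7.78 and 7.91 (0.10, SE 0.14, adjusted p = 0.75), and its sign turned with array weights (-0.01). Mrps18a, found in the large subunit despite its name, stood at 8.35, 8.75 and 7.97 against 7.88, 8.42 and 8.09 (-0.23, SE 0.20, adjusted p = 0.58), with groups that overlapped widely. The intervals of all 3 paralogues overlap.

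The other small-subunit genes above 0 were Mrps2 (0.04, SE 0.12) and Mrps34 (0.01, SE 0.09), both with overlapping groups. The sign of Mrps2 turned under median centring and array weights and without competent 2 or deficient 1. Mrps30, another protein of the large subunit in mammals, stood at -0.24 (SE 0.10, adjusted p = 0.24), and Mrps36, now counted with the 2-oxoglutarate dehydrogenase complex, at -0.24 (SE 0.11, adjusted p = 0.27). Mrps27, an RNA-binding protein of the pentatricopeptide repeat family, was the member below the filter of 5.21, at 5.04, 5.01 and 5.44 against 4.83, 5.28 and 5.29 (difference -0.03, not tested).

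**Figure D3:**
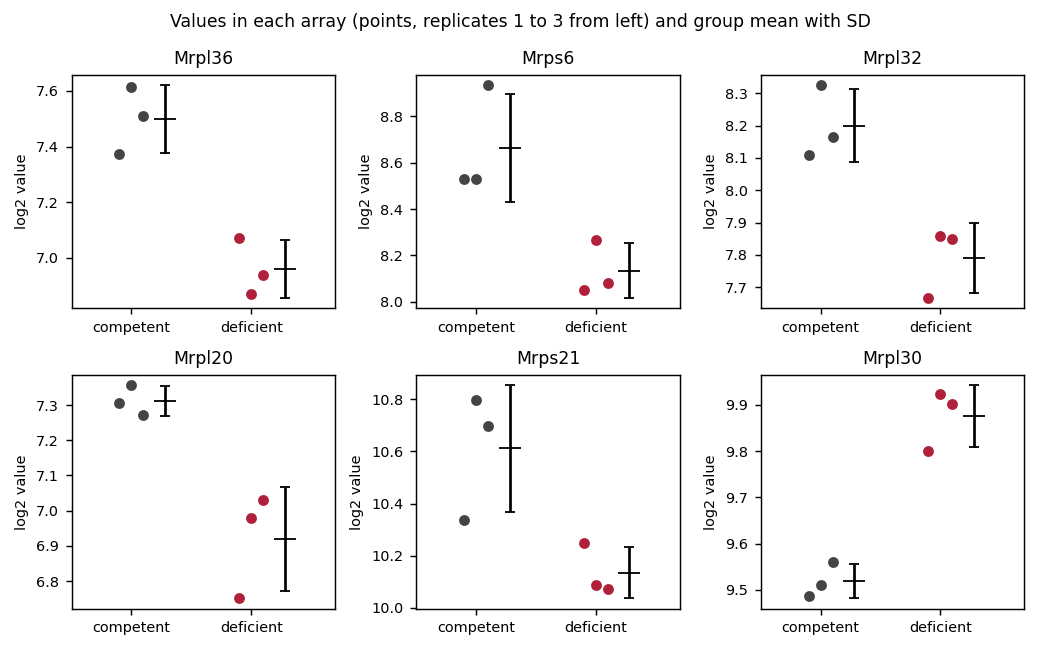
Log2 values (vertical axes, each with its own range) in the single arrays of 6 members with the smallest p, grouped by recipient (MHC II-competent or MHC II-deficient), with the group mean and SD (n = 3) beside the points. The groups do not overlap in any of the 6, and Mrpl30 is the one with higher values in the deficient group.

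The subunits were compared as wholes. By symbol, the 48 large-subunit genes had a median difference of -0.18, with 41 below 0 and 15 (31.3%) without overlap on the lower side. The 28 tested small-subunit genes had a median of -0.22, with 25 below 0 and 14 (50%) without overlap. Over all genes tested that share was 12.9%. Under quantile normalization the order of the subunits in this share turned, with the counts given below. Without competent 3, 27 large-subunit genes were free of overlap on the lower side, beside 21.7% of all genes tested in that smaller set of arrays. Counting Mrps30 and Mrps18a with the large subunit and Mrps36 with neither, as the structure of the mammalian ribosome has them, the medians were -0.18 for both, and the order of the subunits turned (-0.185 for large, -0.176 for small). The mean of the large-subunit genes less the mean of the 29 small-subunit genes was 0.041, 0.072 and -0.041 in the competent arrays and 0.067, 0.048 and 0.042 in the deficient arrays. The groups overlapped, and the change of 0.03 in that gap was smaller than the spread between replicates (pooled SD 0.04). Without competent 3 the change was -0.00443. A difference between the subunits was not detectable beyond the replicate error.

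Single arrays did not contribute equally. Deficient 1 was the lowest of the 6 arrays for 37 of the 76 members, against 10 for deficient 2 and 9 for deficient 3. The mean over the 76 members was 8.68, 8.70 and 8.62 in the competent and 8.43, 8.53 and 8.52 in the deficient arrays, so the groups of these means did not overlap. With 1 array left out the median of the members stayed between -0.24 (without competent 3) and -0.15 (without deficient 1). It was -0.13 under quantile normalization, with 61 of 76 members below 0, and -0.24 under median centring, with 70 below 0, while the median of all genes was -0.00056 and -0.04 and 59.0% of all genes lay below 0 under centring. Under quantile normalization the groups did not overlap on the lower side for 12 of 48 large- and 6 of 28 small-subunit genes. The share over all genes was 11.8%, and the large subunit had the larger share of the subunits.

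Several lists moved beside the members. The mean of the T cell and Treg markers was also lower in every deficient array than in any competent one. Their median difference was -0.17, with 8 of 8 below 0 and 0 past the threshold of limma's test (3 lower at an unadjusted p under 0.05, beside 11.0% of all genes), beside the members' median of -0.18. Under quantile normalization 6 of 8 lay below 0 (median -0.13). The myeloid list had a median of 0.90, with 15 of 17 genes above 0 and 1 (Adgre1, the F4/80 antigen, 1.39, SE 0.29, adjusted p = 0.035) past the threshold. At an unadjusted p under 0.05, 13 of the 17 were higher and 2 lower, beside 7.85% and 11.0% of all genes. Over all genes, 1.34% were called higher. The 19 proliferation markers averaged 9.76, 9.66 and 9.45 in the competent and 9.20, 9.24 and 9.32 in the deficient arrays. Of them 18 lay below 0 (median -0.36), beside 46.0% of all genes, and 5 fell, beside 2.03% of all genes called lower. Among the 5 were Mcm3 (-0.56, SE 0.09), Mki67 (-0.58, SE 0.12), Top2a (-0.64, SE 0.14) and Ccna2 (-0.53, SE 0.11), with adjusted p from 0.016 to 0.041. That count was 2 under quantile normalization and, with 1 array left out, 1 without competent 1, 3 without deficient 3, 7 without competent 3 and 0 without competent 2, deficient 1 or deficient 2. The part of these lists in the members' difference was not tested.

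Cytosolic ribosomal proteins, the counterpart in the cytosol, had a median difference near that of all genes. The list is not matched to the members in level. It averaged 11.41 in the competent and 11.39 in the deficient arrays, against 8.67 and 8.49 for the members. Of 57 tested, 33 lay below 0 and 24 above, the median was -0.02 and 0 passed (2 lower and 0 higher at an unadjusted p under 0.05, beside 11.0% and 7.85% of all genes). The groups did not overlap on the lower side for 3 of them, or 5.26%. Their sign changed with scaling, with a median of 0.01 under quantile normalization and -0.07 under median centring. The members' median was larger in size in both of these settings, and the difference between the lists was not tested.

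**Figure D4:**
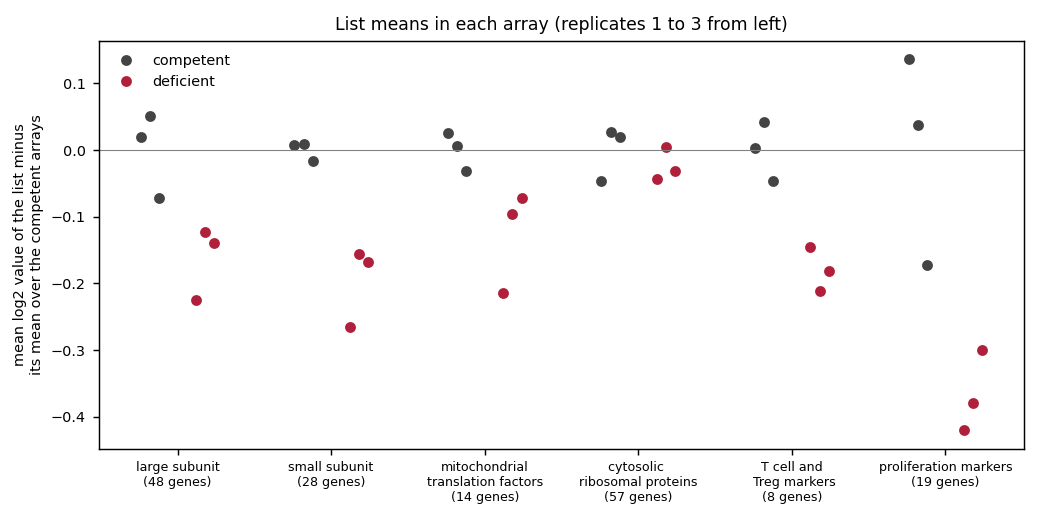
Mean log2 value of each list in each array less the list's mean over the competent arrays (vertical axis), for 6 lists (horizontal axis) and 3 arrays per recipient group. Both subunits, the translation factors, the T cell and Treg markers and the proliferation markers lie lower in all 3 deficient arrays, and the cytosolic ribosomal proteins overlap.

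Other genes of mitochondrial translation were mixed. Of 4 further proteins of the mitochondrial ribosome with other symbols, 3 lay below 0 and 0 passed (1 lower at an unadjusted p under 0.05), the lowest being Dap3, the small-subunit GTP-binding protein (-0.37, SE 0.14, adjusted p = 0.18). Of 14 translation factors 10 lay below 0 (median -0.12) and 1 passed, which rose. It was Gfm2, the elongation factor G that recycles ribosomes, at 7.45 ± 0.02 against 7.04 ± 0.08 (SD, n = 3). Its difference of 0.42 (SE 0.09, adjusted p = 0.045) did not pass under median centring (0.090), the trended robust prior (0.059) or with any 1 array left out (0.066 to 0.15). Mtrf1, a release factor homologue, stood at -0.58 (SE 0.15, adjusted p = 0.073), Tufm, the elongation factor Tu, at -0.30 (SE 0.11, adjusted p = 0.18) and Gfm1, the translocation factor, at -0.30 (SE 0.13, adjusted p = 0.27).

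Factors that assemble the ribosome and modify its RNA had a median above 0. Of 23 tested, 9 lay below 0 and 14 above (median 0.04) and 0 passed (3 lower and 2 higher at an unadjusted p under 0.05, counts near the shares of 11.0% and 7.85% over all genes). The lowest were Noa1, a GTPase of small-subunit assembly (-0.60, SE 0.16, adjusted p = 0.075), and Fastkd2, an RNA-binding protein (-0.50, SE 0.16, adjusted p = 0.13). The 16 mitochondrial aminoacyl-tRNA synthetases had a median of -0.01 and 0 passed (2 lower at an unadjusted p under 0.05), with Fars2 at -0.33 (SE 0.11, adjusted p = 0.13) and Iars2 at -0.32 (SE 0.11, adjusted p = 0.14). The 16 genes of mitochondrial DNA transcription and upkeep had a median of 0.05 and 0 passed (2 lower at an unadjusted p under 0.05). Of these, Gabpb1, a partner of the ETS factor GABP, stood at -0.37 (SE 0.14, adjusted p = 0.19) and Myc at -0.25 (SE 0.10, adjusted p = 0.23).

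Promoters were searched for motifs that the rule did not use. RefSeq promoter windows (250 bases before to 50 after the start) were matched for 68 of the 77 members, with 74 windows in all. The ETS-type motif CCGGAAG was found on either strand in 33.8% of these windows, beside 8.86% of all 32851 windows in the table and 14.6% of those of other tested genes. For AAGATGGC, a core of the YY1 motif, the shares were 16.2%, 2.75% and 3.65%, and for GCGCATGC, a core of the NRF1 motif, 10.8%, 2.71% and 4.37%. By subunit, GCGCATGC was found in 14.9% of large- and 3.70% of small-subunit windows, CCGGAAG in 29.8% and 40.7%, and AAGATGGC in 12.8% and 22.2%. The NRF1-type share of the small subunit is 1 window of 27, too few to rank against the 4.37% of other tested genes. The median GC content was 58.5% in the members, 52.7% over all windows and 59.7% in other tested genes. Windows of cytosolic ribosomal proteins held CCGGAAG in 33.9% and AAGATGGC in 3.57%. A match is a run of letters and does not show that a factor binds.

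The members with an AAGATGGC match include Mrpl36 and several of the larger decreases. The 11 tested ones had a median difference of -0.36, with 10 below 0 and 8 without overlap on the lower side. The 56 tested members with a window and no match had a median of -0.16, with 19 of them without overlap. Over all genes tested, 46.0% lay below 0 and 12.9% were without overlap on the lower side. The 11 are Mrpl36, Mrpl35, Mrpl32, Mrpl42, Mrps11, Mrps7, Mrps12, Mrps18a, Mrps24, Mrpl49 and Mrpl37, from -0.54 to 0.12. For CCGGAAG the medians were -0.22 in 24 members with and -0.17 in 43 without a match. For GCGCATGC they were -0.04 in 8 with and -0.19 in 59 without, and Mrpl32 (-0.41) was the lowest of the 8. These splits of few members are descriptions, with no test.

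Many members start close to another gene. A RefSeq start on the opposite strand within 1000 bases upstream was found for 26 of 68 members (38.2%), against 16.9% of other tested genes and 17.0% of cytosolic ribosomal protein genes. This window was chosen after the values were seen. In the 23 listings with both genes tested, the members had a median difference of -0.17 and their partners of -0.04, with 13 partners below 0. Mrpl46 and Mrps11, whose starts lie 42 bases apart, are partners of each other and were counted from both sides (-0.15 and -0.36). Mrpl30 and its partner Mitd1, 66 bases apart, were both above 0 (0.36 and 0.22, SE 0.09 and 0.12). Mrps12 and Sars2, the mitochondrial seryl-tRNA synthetase gene 147 bases away, were both below (-0.27 and -0.22). Signs differed in other pairs, among them Mrpl41 and Pnpla7 (-0.35 and 0.24), Mrpl47 and Ndufb5 (0.14 and -0.39) and Mrps5 and Zfp661 (-0.17 and 0.65). Whether members and partners move together was not tested. The 1 partner past the threshold was Ska3, a mitotic gene beside Mrpl57 (-0.68, SE 0.12, adjusted p = 0.019), while Mrpl57 itself stood at -0.06 (SE 0.10).

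The members with 2 rows number 8. In 6 of them both rows lay on the same side of 0, as for Mrpl51 (-0.31 and -0.36) and Mrpl27 (-0.29 and -0.63). In Mrpl23 (-0.15 and 0.02) and Mrpl47 (0.14 and -0.10) the rows had opposite signs, so the direction of these 2 genes is uncertain.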

How the data were processed

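Each of the 6 arrays was a single-colour Affymetrix whole-transcript array, hybridised with biotinylated cDNA from 100 ng of total RNA, per the labels' protocols. The submitters' processing notes name affy (an R package) and RMA, and the values deposited by the authors are 1 number per row and array, taken as log2 because they run from 2.40 to 13.3; the log base, software versions and annotation are not given in the sources used here. Array medians lay between 6.11 and 6.25, and no scanner files or detection calls were used.

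Of 28101 rows, 21640 had 1 gene symbol in the platform annotation, 1321 several and 5140 none; symbols were updated by Entrez identifier from a GRCm38.p6 table (21553 matched), which changed no member. The 1 row shared by Mrpl53 and another gene was left out of the members. Per gene the row with the highest mean was kept, and genes with a mean under 5.21, the 25th percentile of named rows, were left out (4900 of 19937), leaving 15037.

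The test was limma's moderated one (version 3.58.1, under R 4.3.3; functions lmFit and eBayes; two-sided, no covariate, 4 residual degrees of freedom), with Benjamini-Hochberg adjustment over all genes tested and a threshold of 0.05. The fit was first tested on simulated data. No protein sequences were used, and a planned split of the members by bacterial ancestry is not given because its list was incomplete. Lists were described by counts and medians only. Named members are those past the threshold, the 8 largest increases and 8 largest decreases, and a set of 10 named whatever their values (Mrps27 among them, untested); of each companion list, up to 4 genes past the threshold or the 2 with the smallest p, and others named in the text were chosen after their values were seen. The members, lists and rules were chosen with earlier results of these data known. Alternatives changed the filter, normalization, prior, array weights, row choice, subunit assignment, replicate block and arrays included.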

Additional observations from a re-analysis of the deposited data

How the results depend on the processing

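Both subunit medians stayed below 0 under every alternative run, from -0.24 to -0.14 for the large and from -0.24 to -0.15 for the small subunit with 1 array left out. The number of large-subunit genes past the threshold on the higher side was 1 (Mrpl30) under quantile normalization, the trended robust prior and array weights, and the number of small-subunit genes on the lower side was 1 under median centring (Mrps6) and under the trended robust prior (Mrps21). With 1 array left out, 0 to 1 large- and 0 to 1 small-subunit genes passed on the lower side. Groups did not overlap on the lower side for 15 to 27 and 14 to 17, and on the higher side for 1 to 2 and 0 to 1. The 27 was seen without competent 3, where 21.7% of all genes did not overlap on the lower side, beside 12.9% with all arrays. Fewer arrays overlap less easily, and the shares over all genes without each other array are not given here, so these ranges are not read as a result about the members. Under quantile normalization 6 small-subunit genes did not overlap on the lower side, beside 11.8% of all genes. Over all genes, 81 to 486 passed lower and 76 to 222 higher with 1 array left out (306 and 201 with all arrays), and 127 passed higher under median centring. Mrpl9 ranged from -0.095 (without competent 3) to 0.25 with 1 array left out. With array weights Mrps18b had a difference of -0.0115 and Mrps2 of -0.0190, and under median centring Mrps2 had -0.0130 and Mrpl28 -0.0156. Mrps2 ranged from -0.0472 (without competent 2) to 0.149 with 1 array left out and had -0.0047 without deficient 1. These signs turned at differences smaller than their standard errors, and the cause was not tested. Among the translation factors 1 passed on the lower side with array weights and without competent 3.

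The replicate number as a block left the 1 call of Mrpl36 (adjusted p = 0.045) and ended that of Gfm2 (0.082). The deviations of same-numbered arrays from their group means correlated at -0.02, -0.14 and 0.07, so the numbers were not taken as pairs; 2 of the 3 deficient arrays correlated better with a competent array of another number. With 3 arrays per group the median standard error of a member was 0.12, and 40 of 76 differences were under 0.2.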
